A study of Mus musculus with 8 samples.

Results

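The TCA cycle and fatty acid oxidation genes are 40 genes listed by symbol, and all 40 were found among the 16686 genes with an identifier and counts in the tibialis anterior (TA) muscle. They comprise 14 TCA cycle enzymes, 5 genes of pyruvate dehydrogenase and its kinases and 21 genes of fatty acid supply and oxidation, and these classes are described apart. All 40 passed the filter on low counts, which left 12542 genes for testing. The rule that picks them uses symbols and no measured value, although the list was drawn up with earlier results of these data known.

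The TCA cycle runs in the mitochondrial matrix, where it oxidises acetyl groups and passes their electrons to the respiratory chain. Acetyl-CoA reaches it either from pyruvate, through the pyruvate dehydrogenase complex that the PDK kinases switch off by phosphorylation, or from fatty acids, which are taken up, activated, carried into mitochondria by the carnitine shuttle and shortened by beta-oxidation. The TA is a mainly fast-twitch muscle of the lower leg, and within muscle these enzymes are more abundant in oxidative than in glycolytic fibres.

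RNA-seq was carried out on TA muscle of 4 wild-type mice (WT Old) and 4 mice lacking Mybpc2 (C2-/- Old), all male, on the FVBN background and 22 months of age. That age is given by the age label and the dissection protocol, whereas the growth protocol speaks of 2 months. Mybpc2 encodes fast myosin binding protein-C, a thick-filament protein of fast-twitch fibres. The knockout allele carries a Neo cassette flanked by LoxP sites in place of part of the gene and is present in every tissue from conception, so an effect in muscle cannot be told apart from an effect of its loss during development. No litter, cage or extraction batch was given, and the comparison asked whether loss of the protein in aged muscle was accompanied by a change in the oxidative transcript programme.

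Total estimated counts were between 25425993 and 29747692 per mouse, and the lowest member level was 41.2 CPM (Eci2 in C2-/- 4). CPM is a gene's count per 1000000 counts of the library after TMM scaling, with scaling factors between 0.929 and 1.03. Mybpc2 itself had 4964 to 7392 CPM in the WT Old mice and 3.85 to 38.3 CPM in the C2-/- Old mice, which matched the labels (edgeR's quasi-likelihood test, Benjamini-Hochberg adjusted p 0.0075). Myh4, the myosin of the fastest fibre type, was between 27814 and 67068 CPM. The slow myosin Myh7 was at 20.9 CPM in WT 4 and between 0.365 and 2.62 CPM in the other mice. Its log2 fold change was -2.47 (SE 0.999, edgeR unadjusted p 0.0321, adjusted p 0.914), with overlapping groups. Fos, an immediate early gene, was above 50 CPM in WT 2, WT 4 and C2-/- 2 and at most 7.80 CPM in the other 5 mice. Whole muscle was sequenced, so fewer cells of a type and less RNA per cell cannot be told apart.

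Across the 40 genes, no genotype difference passed the test. The count with an adjusted p under 0.05 by edgeR was 0 of 40, against 0.0319% of all tested genes (4 of 12542). Before adjustment 0 of 40 had a p under 0.05 as well, against 5.29% of all tested genes. Genotypes overlapped in CPM for each of the 40, while 3.38% of all tested genes had non-overlapping groups. DESeq2, limma-voom and the other alternatives called 0 members as well at an adjusted p under 0.05.

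The estimates were small and mostly below 0 (lower in C2-/- Old). They were below 0 for 14 of 14 TCA cycle genes, 5 of 5 pyruvate dehydrogenase genes and 18 of 21 fatty acid oxidation genes, where 54.2% of all tested genes were. The median log2 fold change was -0.07 for the TCA cycle, -0.07 for pyruvate dehydrogenase and -0.11 for fatty acid oxidation. Over all tested genes it was -0.02, and over the 2533 tested genes with a mean CPM inside the members' range it was -0.06, with 69.5% of those genes below 0. The direction of the TCA cycle genes was therefore read against a background that also leaned downward, and it depended on single mice: without WT 1, 9 of 14 TCA cycle, 3 of 5 pyruvate dehydrogenase and 25 of all 40 estimates were below 0.

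**Figure D1:**
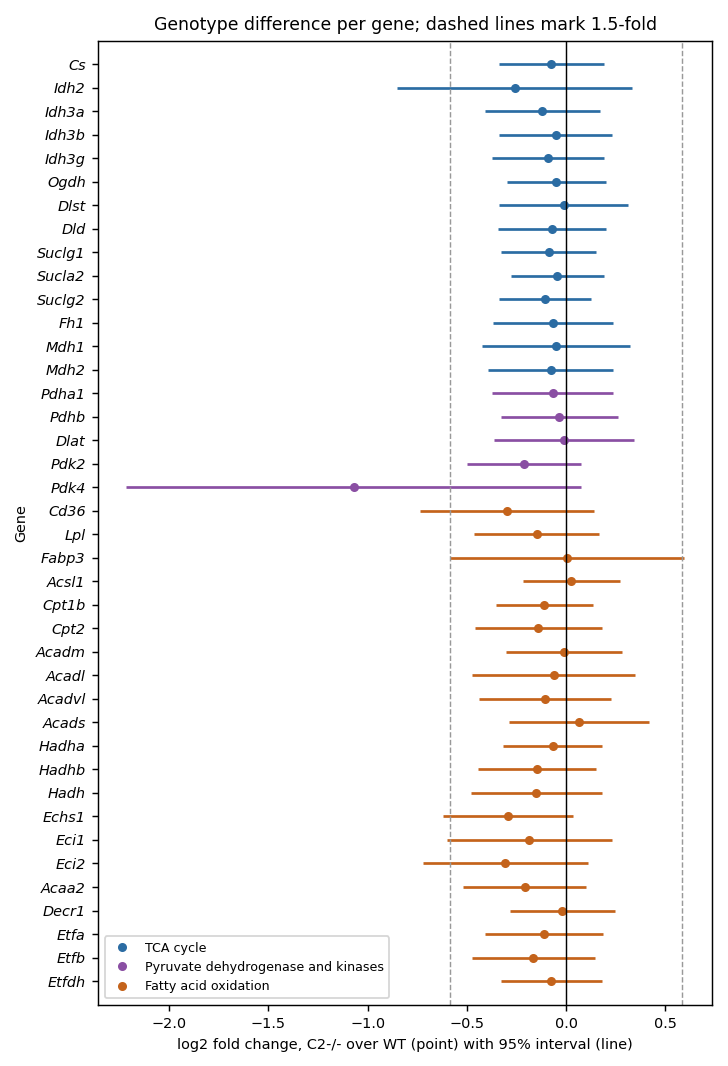
The log2 fold change of C2-/- Old over WT Old (points) is shown with its 95% interval (lines) for the 40 genes, coloured by class, with dashed lines at 1.5-fold in each direction. Every interval includes 0, most points lie just left of it, and Pdk4 has the widest interval.

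The precision of these estimates was high for most members. The 95% interval of the fold change lay within 1.5-fold in both directions for 13 of 14 TCA cycle genes, 4 of 5 pyruvate dehydrogenase genes and 16 of 21 fatty acid oxidation genes, compared with 53% of all tested genes and 77.9% of genes in the members' expression range. The median standard error was 0.14 on the log2 scale for the members and 0.18 for all tested genes. For genes in the members' expression range it was 0.14 as well. Changes beyond 1.5-fold were thus outside the interval for 33 of the 40 genes, whereas smaller ones could not be resolved with 4 mice per genotype. The p-values refer to the spread between these mice.

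The TCA cycle members were summed to 7695 ± 771 CPM in WT Old (SD, n = 4) and 7325 ± 730 CPM in C2-/- Old. By mouse the sum was 8489, 6941, 8214 and 7136 CPM in WT 1 to WT 4 and 8413, 6963, 6859 and 7065 CPM in C2-/- 1 to C2-/- 4. WT 1, WT 3 and C2-/- 1 stood above the other 5 mice, and the groups overlapped over nearly their whole range. Without TMM scaling the sums were 7570 ± 1108 CPM in WT Old and 7475 ± 792 CPM in C2-/- Old. The ratio of C2-/- Old to WT Old was 0.952 with scaling and 0.987 without it. As a share of unscaled counts the TCA cycle members took between 0.66% and 0.866% of a library.

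Cs (chr10:128337727-128362482, GRCm38.p6) encodes citrate synthase, the entry enzyme of the cycle and a common index of mitochondrial content. It was at 1411, 1229, 1485 and 1295 CPM in the WT Old mice and at 1467, 1259.5, 1123 and 1301 CPM in the C2-/- Old mice. WT 3 was highest, C2-/- 1 next and C2-/- 3 lowest. Its log2 fold change was -0.07 (SE 0.12, edgeR unadjusted p 0.552, adjusted p 0.983), and its 95% interval ran from 0.79-fold to 1.14-fold.

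Mdh2 (chr5:135778649-135790386), the mitochondrial malate dehydrogenase, was at 1590, 1201, 1402 and 1169 CPM in WT Old and at 1535, 1166, 1218 and 1164 CPM in C2-/- Old. WT 1, C2-/- 1 and WT 3 stood above the other 5 mice, which lay within 1164 to 1218 CPM whatever their genotype. This gave a log2 fold change of -0.08 (SE 0.14). The cytosolic enzyme Mdh1, which works in the malate-aspartate shuttle, followed the same mice and kept a ratio to Mdh2 of 0.261 to 0.312 in all 8. The Mdh2 promoter is shown because its level followed the respiratory chain genes most closely (below). In the RefSeq promoter window, chr5:135778399-135778698 on the plus strand of GRCm38.p6, from 250 bases before to 50 bases after the transcription start, capitals mark GGGCGG, the core of the GC box that Sp1-family factors bind, on either strand:

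Mdh2: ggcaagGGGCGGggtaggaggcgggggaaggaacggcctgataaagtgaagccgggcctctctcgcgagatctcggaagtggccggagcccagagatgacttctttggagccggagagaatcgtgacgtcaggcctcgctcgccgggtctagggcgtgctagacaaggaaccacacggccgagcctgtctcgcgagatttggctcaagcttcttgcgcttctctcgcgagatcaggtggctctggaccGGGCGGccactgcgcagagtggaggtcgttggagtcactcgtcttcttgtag

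Idh3a, Idh3b and Idh3g encode the subunits of the NAD-dependent isocitrate dehydrogenase, the regulated oxidative step of the cycle. Idh3a (chr9:54586511-54604662) was at 749, 566, 713 and 626 CPM in WT Old and at 720, 593, 559 and 570.0 CPM in C2-/- Old. As for Mdh2, the upper 3 mice were WT 1, C2-/- 1 and WT 3. The log2 fold change was -0.12 for Idh3a (SE 0.13), -0.05 for Idh3b and -0.09 for Idh3g. Idh3b and Idh3g, both regulatory subunits, kept a ratio between 0.826 and 0.963 in every mouse.

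Idh2, the NADP-dependent mitochondrial isocitrate dehydrogenase that supplies NADPH, departed from this pattern. It was at 143, 152, 115 and 100.04 CPM in WT Old and at 136, 75.7, 64.5 and 150.3 CPM in C2-/- Old. The C2-/- mice fell into a higher and a lower pair, the highest mouse was WT 2 and the lowest C2-/- 3. Its log2 fold change of -0.26 (SE 0.27) was the largest of the TCA cycle members in size and the only one whose 95% interval, 0.554-fold to 1.26-fold, passed 1.5-fold.

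Ogdh (chr11:6291597-6359094), the E1 component of 2-oxoglutarate dehydrogenase, was at 1690 (WT 1), 1452, 1818 and 1666 CPM in WT Old and 1727, 1541, 1485 and 1652 CPM in C2-/- Old. Its log2 fold change was -0.05 (SE 0.11). Dlst and Dld, the E2 and E3 components of the same complex, had estimates of -0.01 and -0.07. Dld is also a subunit of pyruvate dehydrogenase, so it belongs to both entry and cycle.

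Succinyl-CoA ligase joins the alpha subunit Suclg1 to either the ADP-forming beta subunit Sucla2 or the GDP-forming beta subunit Suclg2. Suclg2 (chr6:95473009-95718858) had the smallest unadjusted p of the TCA cycle members, 0.329 by edgeR (adjusted p 0.968). It was at 49.2, 45.05, 51.2 and 46.7 CPM in WT Old and at 49.2, 43.3, 42.1 and 43.9 CPM in C2-/- Old. Only C2-/- 1 reached the WT range, and the log2 fold change was -0.11 (SE 0.10). Sucla2 exceeded Suclg2 by 5.21 to 6.34 times in CPM and by 8.43 to 10.4 times in TPM, which corrects for length, in every mouse. A sequence named Gm15163 is 98.9% identical to Suclg2 over 1302 bases, so reads could have been divided between them. Fh1, fumarase, had an estimate of -0.07.

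Pyruvate dehydrogenase subunits did not differ between genotypes beyond their spread, whereas one of the kinases varied widely. Pdha1 (chrX:160122219-160138430), the E1 alpha subunit that the kinases phosphorylate, was at 566, 426, 586 and 489 CPM in WT Old and at 522, 502, 537 and 409.6 CPM in C2-/- Old. WT 2 and C2-/- 4 were the lowest mice. The log2 fold change was -0.07 (SE 0.14) for Pdha1, -0.03 (SE 0.13) for Pdhb, the E1 beta subunit, and -0.01 (SE 0.16) for Dlat, the acetyltransferase core.

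Pdk2 (chr11:95026258-95041371), the kinase isoform present in most tissues, was at 1127, 969, 938.5 and 1019 CPM in WT Old and at 993, 864, 709 and 932 CPM in C2-/- Old. C2-/- 3 was lowest and WT 1 highest, and only C2-/- 1 lay inside the WT range. Its log2 fold change was -0.21 (SE 0.13, edgeR unadjusted p 0.128, adjusted p 0.968), with a 95% interval of 0.707-fold to 1.05-fold.

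Pdk4 (chr6:5483351-5496278), the isoform that fasting, glucocorticoids and fatty acids induce in muscle, was the most variable member. It was at 129, 1008, 282 and 468 CPM in WT 1 to WT 4 and at 320, 212, 234 and 133 CPM in C2-/- 1 to C2-/- 4. WT 2 stood far above the rest, the lowest WT mouse was below every C2-/- mouse, and the highest value was 7.84 times the lowest, where the median member spanned 1.44-fold. This gave a log2 fold change of -1.07 (SE 0.52, edgeR unadjusted p 0.0645, adjusted p 0.968), with a 95% interval of 0.215-fold to 1.05-fold. Leaving out single mice moved it from -1.38 (without WT 1) to -0.37 (without WT 2), with unadjusted p-values of 0.00812 without WT 1 and 0.0455 without WT 3, and adjusted p-values of at least 0.637. The 2 highest mice, WT 2 and WT 4, had high Fos, while C2-/- 2, which also had it, was at 212 CPM of Pdk4. Without WT 2, WT 4 and C2-/- 2 the log2 fold change was 0.17. The part of the Fos difference in that value was not tested.

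The ratio of Pdk4 to Pdk2 accordingly ran from 0.114 in WT 1 to 1.04 in WT 2, while in the C2-/- mice it lay between 0.143 and 0.331. Ucp3 and Angptl4, which fatty acids also induce, had log2 fold changes of 0.12 (SE 0.31) and 0.47 (SE 0.33). Ucp3 was at 72.8, 187, 149 and 201 CPM in WT 1 to WT 4 and at 137, 164, 246 and 115 CPM in C2-/- 1 to C2-/- 4. Angptl4 was low, at 1.08 to 3.48 CPM. The part of fatty acids in the level of Pdk4 was not tested. The RefSeq promoter of Pdk4 (chr6:5496229-5496528, minus strand, same window) is printed as that of the most variable member, with the CCAAT box, which NF-Y binds, in capitals (here on the opposite strand). It holds 12 CpG dinucleotides, against 27 in that of Mdh2:

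Pdk4: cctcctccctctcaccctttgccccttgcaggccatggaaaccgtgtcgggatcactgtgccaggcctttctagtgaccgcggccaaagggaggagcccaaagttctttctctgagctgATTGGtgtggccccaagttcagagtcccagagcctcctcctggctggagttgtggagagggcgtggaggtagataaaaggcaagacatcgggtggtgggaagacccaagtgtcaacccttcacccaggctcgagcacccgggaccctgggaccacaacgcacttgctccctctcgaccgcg

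**Figure D2:**
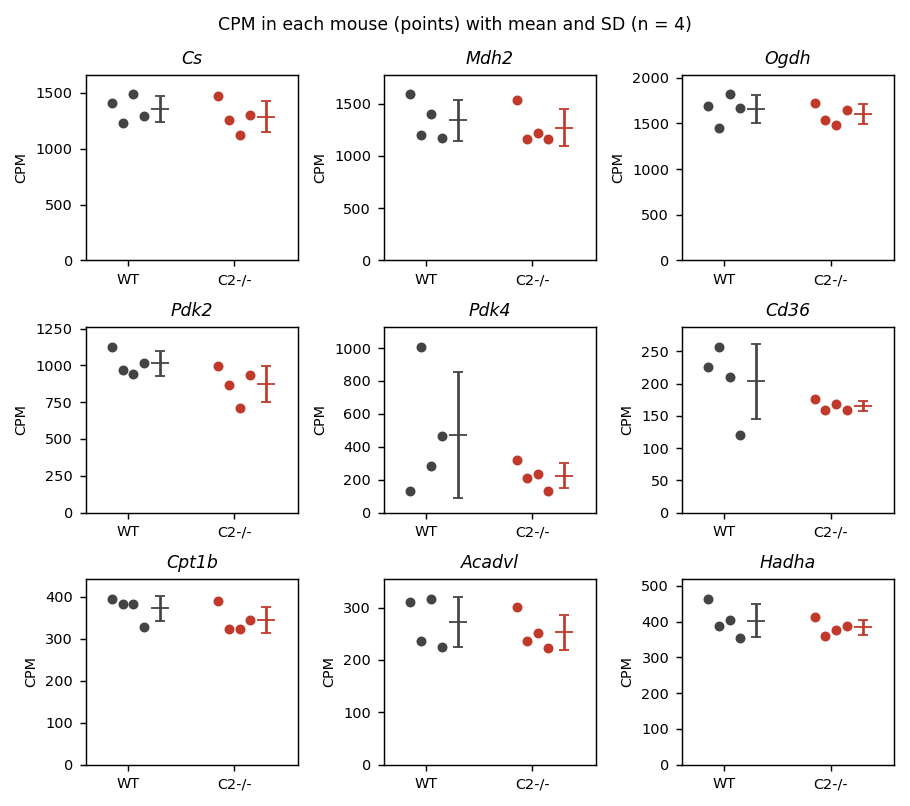
CPM of 9 members is plotted for each of the 4 WT Old and 4 C2-/- Old mice (points), with the mean and SD beside them, on axes that start at 0. The genotypes overlap in each panel, and the single WT mouse at 1008 CPM sets the WT mean of Pdk4.

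The fatty acid oxidation members summed to 3932 ± 532 CPM in WT Old (SD, n = 4) and 3656 ± 352 CPM in C2-/- Old. By mouse the sum was 4567, 3922, 3972 and 3266 CPM in WT Old and 4168, 3369, 3574 and 3511 CPM in C2-/- Old. Both the highest and the lowest mouse were WT. Without TMM scaling the sums were 3870 ± 677 CPM in WT Old and 3729 ± 367 CPM in C2-/- Old. The ratio of C2-/- Old to WT Old was 0.93 with scaling and 0.964 without it. Estimates above 0 were those of Fabp3 (0.01), Acsl1 (0.03) and Acads (0.06), and the other 18 ran from -0.31 (Eci2) to -0.01 (Acadm).

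Among the genes of fatty acid supply, Cd36 (chr5:17781690-17888959) encodes the fatty acid translocase of the fibre and capillary membrane. It was at 225, 258, 210.5 and 120.4 CPM in WT Old and at 176, 159, 168 and 159 CPM in C2-/- Old. WT 4 was below every C2-/- mouse and the other 3 WT mice above every C2-/- mouse, and the SD was 58.8 CPM in WT Old and 8.36 CPM in C2-/- Old. The log2 fold change was -0.30 (SE 0.20, edgeR unadjusted p 0.164, adjusted p 0.968). Without WT 4 it was -0.47 (unadjusted p 0.00322, adjusted p 0.874).

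Lpl (chr8:68880555-68906932), lipoprotein lipase, which frees fatty acids from circulating triglyceride, was at 421, 369, 350 (WT 3) and 289.5 CPM in WT Old and at 385, 300.1, 318 and 286 CPM in C2-/- Old. Its log2 fold change was -0.15 (SE 0.14). Lpl is also abundant in adipocytes. Fabp3 (chr4:130308738-130315463), the cytosolic fatty acid binding protein of oxidative muscle, was at 232, 140.3, 141 and 94.1 CPM in WT Old and at 182, 107, 131 and 188 CPM in C2-/- Old. Mice of both genotypes stood at either end, so the log2 fold change of 0.01 carried an SE of 0.27 and a 95% interval of 0.667-fold to 1.51-fold. A pseudogene, Fabp3-ps1, is 99.3% identical to Fabp3 over 402 bases.

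Acsl1 (chr8:46471037-46536051), the long-chain acyl-CoA synthetase that activates fatty acids in muscle, was at 304, 322, 334 and 290.5 CPM in WT Old and at 362, 285, 325 and 301 CPM in C2-/- Old. Both the highest and the lowest mouse were C2-/-, with the WT mice between them, and the 95% interval of its fold change was 0.859 to 1.21.

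The carnitine shuttle genes did not differ between genotypes beyond their spread. Cpt1b (chr15:89416405-89425862), the muscle carnitine palmitoyltransferase of the outer membrane and the step inhibited by malonyl-CoA, was at 395, 382, 382 and 329 CPM in WT Old and at 389, 324, 322 and 344 CPM in C2-/- Old. WT 1, WT 2, WT 3 and C2-/- 1 lay above the other 4 mice. Its log2 fold change was -0.11 (SE 0.11, edgeR unadjusted p 0.344). A sequence named Gm44502 is identical to Cpt1b over 1841 bases, so reads could have been divided between them. Cpt2, the inner membrane partner, was at 68.6 to 105 CPM with an estimate of -0.14 (SE 0.14).

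Beta-oxidation starts with acyl-CoA dehydrogenases that differ in the chain length they accept. Acadvl (chr11:70010183-70015428), for very long chains, was at 310.4, 236, 317 and 226 CPM in WT Old and at 301 (C2-/- 1), 236, 251 and 223 CPM in C2-/- Old. Acadm (chr3:153922353-153944643), for medium chains, was at 275, 223, 273 and 217 CPM in WT Old and at 293.5, 230.2, 231 and 226 CPM in C2-/- Old. For both genes the highest mice were again WT 1, WT 3 and C2-/- 1. Their log2 fold changes were -0.11 (SE 0.15) and -0.01 (SE 0.13), and the ratio of Acadvl to Acadm stayed between 0.99 and 1.16. Acadl, for long chains, and Acads, for short chains, had estimates of -0.06 (SE 0.19) and 0.06 (SE 0.16).

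Hadha (chr5:30119423-30154980) and Hadhb (chr5:30155253-30184593) encode the alpha and beta subunits of the trifunctional protein, which carries out the last 3 steps on long chains. Hadha was at 464, 387, 404 and 354 CPM in WT Old and at 412, 360.2, 378 and 387 CPM in C2-/- Old. Hadhb was at 365, 290.4, 271 and 243 CPM in WT Old and at 285, 244, 262 and 266 CPM in C2-/- Old. WT 1 was the highest and WT 4 the lowest mouse for both genes, and their log2 fold changes were -0.07 (SE 0.11) and -0.15 (SE 0.14). Their CPM ratio, Hadhb over Hadha, varied only from 0.669 to 0.787.

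These 2 genes lie head to head: in RefSeq their transcription starts are 273 bases apart on opposite strands, and their promoter windows share 228 bases. The Hadhb window (chr5:30155003-30155302, plus strand) is printed because most of it also precedes Hadha, with GGGCGG on either strand in capitals. It has 4 such matches:

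Hadhb: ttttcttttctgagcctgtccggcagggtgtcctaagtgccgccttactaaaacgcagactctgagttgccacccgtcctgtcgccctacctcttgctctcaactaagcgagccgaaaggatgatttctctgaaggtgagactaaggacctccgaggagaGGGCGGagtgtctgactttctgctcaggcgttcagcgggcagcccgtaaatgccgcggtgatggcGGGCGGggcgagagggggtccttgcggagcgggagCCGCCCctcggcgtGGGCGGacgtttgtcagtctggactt

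Echs1 (chr7:140105710-140116421), the short-chain enoyl-CoA hydratase, had the smallest unadjusted p of the beta-oxidation members. It was at 107, 110.2, 88.1 and 81.0 CPM in WT Old and at 97.2, 74.9, 68.2 and 74.7 CPM in C2-/- Old. The 3 lowest mice were C2-/-, and C2-/- 1 lay inside the WT range. This gave a log2 fold change of -0.29 (SE 0.15, edgeR unadjusted p 0.075, adjusted p 0.968), and the 95% interval was 0.65-fold to 1.02-fold. Without C2-/- 1 it was -0.40 (unadjusted p 0.0203, adjusted p 0.983). The RefSeq gene shares 687 bases with Paox, which was at 4.33 CPM.

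The remaining beta-oxidation members also had estimates below 0, none past the test. They were -0.15 for Hadh (hydroxyacyl-CoA dehydrogenase), -0.21 for Acaa2 (thiolase), -0.19 for Eci1 and -0.31 for Eci2 (enoyl-CoA isomerases) and -0.02 for Decr1 (dienoyl-CoA reductase), with standard errors between 0.12 and 0.19. The RefSeq window of the Acadm promoter (chr3:153944594-153944893, minus strand) is shown because it holds 2 motifs of regulators known for oxidative genes. Capitals mark AAGGTCA, the core site that ERR receptors bind (near the first base), and GCGCATGC, the core of the NRF-1 site, both here on the opposite strand:

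Acadm: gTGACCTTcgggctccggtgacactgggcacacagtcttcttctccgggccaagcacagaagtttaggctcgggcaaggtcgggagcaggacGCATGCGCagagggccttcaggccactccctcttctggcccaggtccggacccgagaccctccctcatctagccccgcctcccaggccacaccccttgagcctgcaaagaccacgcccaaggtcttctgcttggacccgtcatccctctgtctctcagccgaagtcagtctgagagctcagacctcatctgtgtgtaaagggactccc

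Electrons from the acyl-CoA dehydrogenases pass through the electron transfer flavoprotein, Etfa and Etfb, to its dehydrogenase Etfdh. Etfb (chr7:43444072-43457800) was at 161, 129, 126 and 120.2 CPM in WT Old and at 143, 116, 119 and 100.4 CPM in C2-/- Old. C2-/- 2, 3 and 4 were below every WT mouse and C2-/- 1 was the second highest of all. The log2 fold change was -0.17 for Etfb (SE 0.14, edgeR unadjusted p 0.263), -0.11 for Etfa and -0.07 for Etfdh. The subunits Etfb and Etfa kept a ratio of 1.13 to 1.32. A sequence named Gm45233 is 99.7% identical to Etfb over 626 bases.

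Across promoters, members were more often GC-rich than the RefSeq set at large. That set was not limited to genes expressed in muscle, so a difference from other expressed genes is not shown. Of the 40 members 35 had a window, 42 windows in all, as some genes have several. The median member window held 18 CpG dinucleotides against 7 in all 32851 windows. GGGCGG was present on either strand in 24 of 35 members (68.6%) and in 38.2% of 27025 genes, CCAAT in 18 (51.4%) and 41.1%, and GCGCATGC in Acadm, Etfa, Etfdh and Ogdh (11.4%) and 3.05%. The full NRF-1 palindrome, which contains that core, was in Etfdh only (1.07% of all genes). AAGGTCA was in Acadm and Ogdh (5.71%, against 5.38%), the TATA box TATAAA in 0 members against 15.7%, and the full ERR element TCAAGGTCA (0.466%) and the PPAR-RXR direct repeat with 1 base between its repeats (0.0481%) in 0 members. A match is a string of letters in a window of 300 bases, and many response elements lie outside it.

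The larger differences in these data were between mice of the same genotype. Among the 14 TCA cycle genes, WT 1, WT 3 and C2-/- 1 were the 3 highest mice for 11, as they were for 8 of 21 fatty acid oxidation genes and 2 of 5 pyruvate dehydrogenase genes. The same 3 mice led for 3.21% of all tested genes. WT 1 was the highest mouse for 24 of the 40 genes and among the 3 highest for 38, whereas WT 4 and C2-/- 2 were among the 3 lowest for 28 each and C2-/- 4 for 29. These mice were noticed after the values were seen, and the counts are a description.

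**Figure D3:**
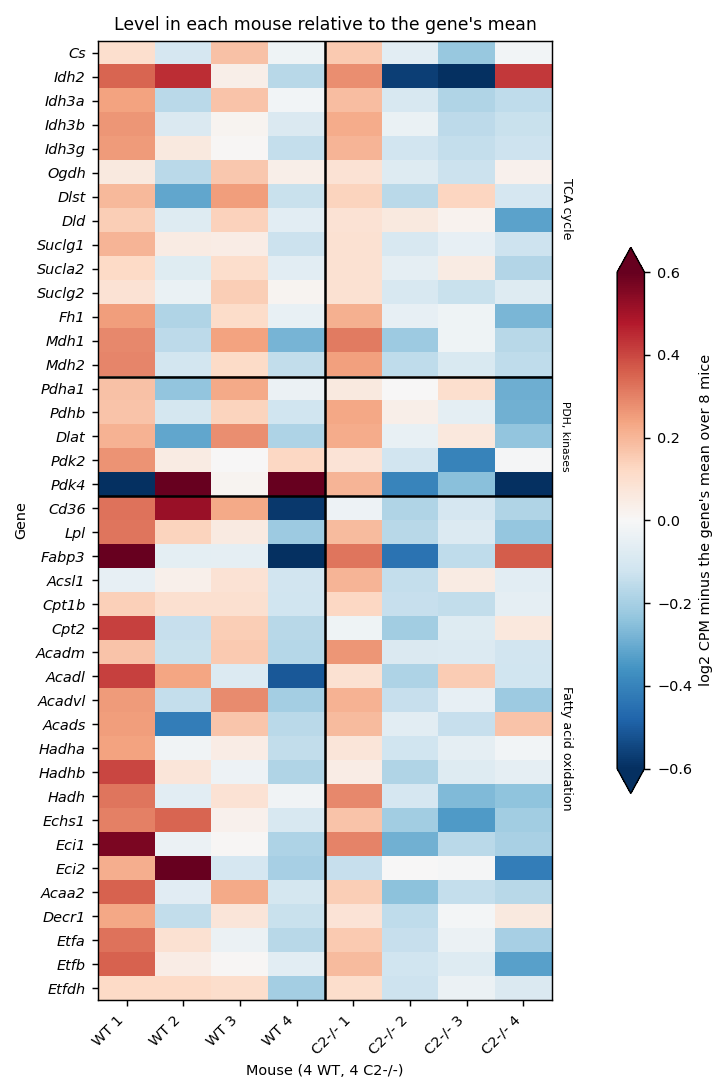
Each cell is a gene's log2 CPM in one mouse minus its mean over the 8 mice (red above, blue below, colours saturating at 0.6), with WT Old left and C2-/- Old right of the vertical line and the classes separated by horizontal lines. Columns WT 1, WT 3 and C2-/- 1 are red for most TCA cycle genes, and the rows Idh2 and Pdk4 break the pattern.

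The mean log2 CPM of the TCA cycle genes, centred on the 8 mice, was 0.20, -0.06, 0.12 and -0.09 in WT 1 to WT 4 and 0.17, -0.12, -0.13 and -0.10 in C2-/- 1 to C2-/- 4. That of the fatty acid oxidation genes was 0.30, 0.05, 0.07 and -0.21 in WT Old and 0.14, -0.16, -0.09 and -0.11 in C2-/- Old. The class means moved together (r = 0.889 over 8 mice), although WT 2 and WT 4, nearly equal for the TCA cycle, were apart for fatty acid oxidation. The mean of the pyruvate dehydrogenase genes, which Pdk4 pulls, had r = 0.349 with that of the TCA cycle.

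As for the TCA cycle mean, the 4 highest mice were WT 1, C2-/- 1, WT 3 and WT 2, in that order, in the mean of 12 nuclear-encoded genes of the respiratory chain and the mitochondrial outer membrane, such as Ndufs1, Sdhb, Cox4i1 and Atp5b. Their centred mean was 0.26, -0.08, 0.08 and -0.14 in WT Old and 0.22, -0.10, -0.09 and -0.16 in C2-/- Old. Its correlation over the 8 mice was 0.962 with the TCA cycle mean, 0.908 with the fatty acid oxidation mean and 0.334 with the pyruvate dehydrogenase mean. By gene, r exceeded 0.8 for 8 of 14 TCA cycle genes (57.1%), 2 of 5 pyruvate dehydrogenase genes (40%) and 9 of 21 fatty acid oxidation genes (42.9%). The share of all tested genes was 2.03%. Within the pyruvate dehydrogenase class, r ran from -0.225 for Pdk4 to 0.887 for Pdhb. All of these values come from the same 8 libraries and share their depth and scaling, so they describe likeness between mice and carry no test.

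**Figure D4:**
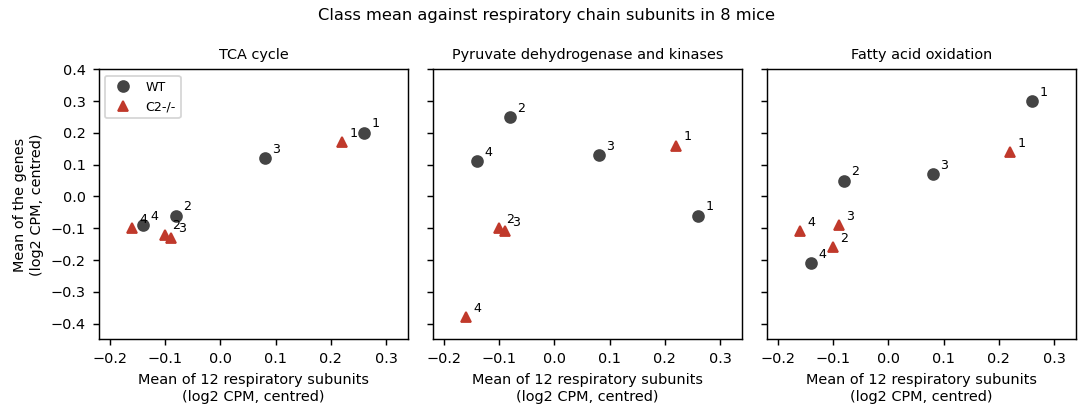
The mean centred log2 CPM of each class (vertical axis) is plotted against that of 12 respiratory chain and outer membrane genes (horizontal axis) for 4 WT Old (circles) and 4 C2-/- Old mice (triangles), numbered by mouse. Mice of both genotypes lie along one rising band for the TCA cycle and fatty acid oxidation. The mean of pyruvate dehydrogenase and its kinases, which Pdk4 pulls, shows no such band.

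The genes most like the respiratory list were Mdh2 (r = 0.992), Idh3b (0.957), Eci1 (0.941), Acadm (0.940) and Mdh1 (0.933). The least like were Pdk4 (-0.225), Eci2 (0.182), Idh2 (0.366), Cd36 (0.480) and Pdk2 (0.508). The paired isomerases Eci1 and Eci2 thus stood at opposite ends. Sequences named Gm15287 and Gm15280 are 95.9% and 96.3% identical to Eci2 over 612 and 483 bases, so reads could have been divided between them. The part of such reads in this contrast was not tested. Cs, often used as an index of mitochondria, had r = 0.716.

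The summed CPM of fibre type markers, in which abundant genes weigh most, separated the same mice. The summed level of 11 slow and oxidative fibre genes, among them Mb, Tnni1 and Myh2, was 6550, 6170 and 5740 CPM in WT 1, WT 3 and C2-/- 1 and 3390 to 3970 CPM in the other 5 mice. The summed level of 9 fast glycolytic fibre genes was 142000 to 149000 CPM in those 3 mice and 158000 to 201000 CPM in the others. As mean log2 levels, which weigh each marker equally, the slow list had r = 0.456 and the fast list r = -0.663 with the TCA cycle mean. On that scale the mice were not separated. For the slow list WT 4 (0.75) was highest, and WT 3 (-0.10) was below C2-/- 3 (-0.03). For the fast list C2-/- 4 (-0.05) was below C2-/- 1 (-0.03). Myh2 alone was highest in WT 1 (533 CPM) and next in C2-/- 4 (439 CPM). For the slow list 9 of 11 estimates were below 0, with a median of -0.33 on the log2 scale. For the fast list 6 of 9 were, with a median of -0.06. An unadjusted p under 0.05 by edgeR in the lower direction was found for 2 slow genes, against 1.91% of all tested genes. Fast genes had 0, and no gene of either list had an adjusted p under 0.05. Groups did not overlap for 1 slow gene, against 3.38% of all tested genes. The adipocyte list, with 7 of its 9 genes tested, had r = -0.868 with the TCA cycle mean and -0.881 with the fatty acid oxidation mean. Its summed level was 90.1 to 134 CPM in WT Old and 95.8 to 148 CPM in C2-/- Old. By gene, 1 of the 7 had an estimate below 0, against 54.2% of all tested genes, and the median was 0.73 on the log2 scale. An unadjusted p under 0.05 by edgeR was found for 0 of the 7. None of the 8 adipocyte genes in the table was at 0 in every mouse. Among connective tissue markers, estimates were above 0 for 5 of 5 fibro-adipogenic genes and 7 of 8 tested tendon genes. None of them had an adjusted p under 0.05 by edgeR. The summed level of the 5 fibro-adipogenic genes, such as Pdgfra and Col1a1, was 291 to 426 CPM in WT Old and 467 to 644 CPM in C2-/- Old. Groups did not overlap for 4 of the 5, against 3.38% of all tested genes. Of these 5 genes 3 had an unadjusted p under 0.05 by edgeR in the higher direction, against 3.38% of all tested genes. The mean of the 5 had r = -0.283 with that of the 40 members. The summed level of 9 tendon genes was 69.4 to 225 CPM in WT Old and 113 to 325 CPM in C2-/- Old. Of these, 8 were tested (median estimate 1.22 on the log2 scale), and their mean had r = -0.683 with the members. An unadjusted p under 0.05 by edgeR in the higher direction was found for 3 of the 8, and groups did not overlap for 0. No gene of either list was at 0 in every mouse. The part of fibre type, fat, connective tissue or mitochondrial content in the members' levels was not tested.

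By length-corrected level, the members were far from equal. Per kilobase of the longest annotated transcript the highest members were Mdh2 (813 CPM per kb), Cs (440), Pdk2 (420), Ogdh (395) and Idh3a (247), and the lowest was Suclg2 (13.8). On the deposited TPM scale Mdh2 (1960 TPM), Cs (870), Pdk2 (779), Idh3g (734) and Ogdh (711) were highest and Suclg2 (25.4) again lowest. The orders were alike over the 40 genes (Spearman's rho 0.921), and the first 3 were the same in both. Pdk2 stood among the enzymes of the cycle, above Pdk4, whose level was 0.074 to 0.675 times that of Pdk2 in TPM. Neighbours in the middle of the order, such as Cpt1b (230 ± 20.1 TPM over the 8 mice), Acadvl (225 ± 38.2) and Acadm (224 ± 30.5), did not differ beyond their spread.

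Genes of the same pathways outside the 40 are given beside the members, of which 92.5% had an estimate below 0, with no test of the difference. Of 24 genes of the TCA cycle and pyruvate entry, 17 had an estimate below 0 (70.8%) and 0 had an adjusted p under 0.05 by edgeR. Of 51 genes of fatty acid oxidation and supply, 32 had an estimate below 0 (62.7%) and 0 had an adjusted p under 0.05. An unadjusted p under 0.05 was found for 2 of the 51 in the lower direction, Crat and Acsl6, against 1.91% of all tested genes, and for 0 in the higher direction, against 3.38%. Crat, the carnitine acetyltransferase that buffers mitochondrial acetyl-CoA, was at 1086, 955, 994 and 924 CPM in WT Old and at 781, 762, 825 and 872 CPM in C2-/- Old, with a log2 fold change of -0.29 (SE 0.10, edgeR unadjusted p 0.0193, adjusted p 0.849). Acsl6, an acyl-CoA synthetase, was at 53.4 to 84.7 CPM in WT Old and at 28.4 to 52.2 CPM in C2-/- Old, with a log2 fold change of -0.59 (SE 0.21, edgeR unadjusted p 0.0156, adjusted p 0.802). For both genes the groups did not overlap, and neither passed after adjustment. Ppargc1a and Esrra, regulators of mitochondrial genes, had log2 fold changes of -0.13 (SE 0.18) and -0.03 (SE 0.18), with overlapping groups.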

How the data were processed

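RNA-seq of TA muscle was analysed, with 4 mice in each of the groups WT Old and C2-/- Old. The authors deposited 1 table with an estimated count, TPM and FPKM per gene and mouse (GRCm38.p6; HISAT, Bowtie2 and DESeq2 are named in the submitters' processing notes, and the study's methods name featureCounts). Since 5.5% to 6.53% of the deposited expected counts per mouse were not whole, the counter is not settled, and counts were rounded. The strand setting is not given in the sources used here. The deposited TPM values were used only to compare levels between genes. Their 3 columns of a genotype comparison (fold change, p-value and q-value) and the FPKM were not used.

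Genes were filtered (filterByExpr), TMM-scaled and tested with edgeR 4.0.16 (quasi-likelihood, two-sided, R 4.3.3), C2-/- Old against WT Old, with Benjamini-Hochberg adjustment over 12542 genes and 95% intervals from the fitted standard error. The test assumed raw counts when it was planned. The procedure was tested on simulated data. Correlations used log2 CPM with a prior count of 2. Coordinates and promoter sequences are RefSeq, GRCm38.p6. Matching transcripts were searched with blastn 2.17.0 (at least 90% identity over 400 bases).

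The members, pathway and marker lists were chosen with earlier results of these data known. Genes named are 15 fixed members, the member with the smallest p in each role group, and pathway genes with an unadjusted p under 0.05, of which some are not reported here. Further members, and the other genes Ppargc1a, Esrra, Ucp3 and Angptl4, were named after their values were seen. The ERR core site, the GC box and the TATA box were added to the motifs searched after the promoters were seen. Alternatives were RLE scaling, limma-voom 3.58.1 with and without quality weights, DESeq2 1.42.0, no filter, at least 10 counts in every mouse, a replicate block, and leaving out each mouse. Leaving out the 3 mice with Fos above 50 CPM was chosen after seeing the data. Counting error is small at these depths, and the spread between mice sets the precision.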

Additional observations from a re-analysis of the deposited data

Results flagged for a closer look

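In each genotype, a mouse standing apart from the other 3 was looked for in each of the 40 genes by Dixon's ratio of the gap to the range, against its 95% critical value. Of 80 groups tested 4 held such a mouse, where about 1 in 20 is the share for independent groups. The members were correlated over the same 8 mice (median r 0.617 between members). The 80 groups are therefore not independent, and the count cannot be judged against that share. In the C2-/- Old group, C2-/- 1 stood above the other 3 for Idh3g (584 CPM, gap over range 0.921), Mdh2 (1535 CPM, 0.854) and Acadm (294 CPM, 0.92). In the WT Old group, WT 4 stood below the others for Etfdh (84.0 CPM, 0.949). C2-/- 1 was also the C2-/- mouse with the highest mean of the respiratory chain genes.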

How the results depend on the processing

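Across 640 pairs of a member and an alternative, 0 had an adjusted p under 0.05 (lowest 0.637), 8 had an unadjusted p under 0.05, all of Pdk4, Cd36 or Echs1, and 52 changed sign, in 20 members, while the other 20 kept their direction. The cause was not tested. With 4 mice per genotype, differences within the 95% intervals could not be resolved.

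All tested genes with an adjusted p under 0.05 numbered 4, but 39 by DESeq2, 2 without the 3 mice with high Fos and 4 to 7 when single mice were left out. Leaving out single mice gave 9 to 14 TCA cycle, 2 to 5 pyruvate dehydrogenase and 13 to 20 fatty acid oxidation members below 0, and 0 to 1 pyruvate dehydrogenase and 0 to 2 fatty acid oxidation members with an unadjusted p under 0.05. With no filter 1 pyruvate dehydrogenase member (Pdk4) had one, and without the mice with high Fos 1 fatty acid oxidation member (Cd36).

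The deviations of same-numbered mice had r = 0.267, 0.042, -0.0507 and 0.0212 for numbers 1 to 4. For mice of unlike number r ran from -0.225 to 0.202. With 4 mice per genotype and no batch given, these values cannot settle whether the numbers pair the mice. With the replicate number as a block, 1 fatty acid oxidation member (Echs1) had an unadjusted p under 0.05, 35 of 40 estimates were below 0 and 4 of all tested genes had an adjusted p under 0.05. The block changed no other call.

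Sign changes by method were Dlst (0.001) and Dlat (0.003) under limma-voom and under the replicate block, Dlst (0.0) and Dlat (0.002) with at least 10 counts, and Acadl (0.089) with quality weights. Without the mice with high Fos they were Pdk4 (0.166), Fabp3 (-0.151) and Acads (-0.123). When single mice were left out, log2 fold changes ranged from -0.136 to 0.032 for Idh3b, from -0.1 to 0.005 for Ogdh, from -0.1 to 0.08 for Dlst, from -0.106 to 0.015 for Dld, from -0.076 to 0.004 for Sucla2, from -0.149 to 0.009 for Fh1, from -0.172 to 0.038 for Mdh1, from -0.175 to 0.015 for Mdh2, from -0.144 to 0.01 for Pdha1, from -0.117 to 0.047 for Pdhb, from -0.099 to 0.094 for Dlat, from -0.156 to 0.284 for Fabp3, from -0.034 to 0.081 for Acsl1, from -0.104 to 0.045 for Acadm, from -0.199 to 0.077 for Acadl, from -0.042 to 0.164 for Acads, from -0.111 to 0.008 for Hadha, from -0.325 to 0.001 for Eci1 and from -0.063 to 0.062 for Decr1.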
